A study of Homo sapiens with 24 samples.

Results

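The 9737 m6A peaks described here were listed in wild-type pancreatic progenitors (WT PP) and had no counterpart in progenitors without ALKBH5 (A5-KO PP). They are called WT-only peaks below. They were chosen by values of these data: 50 or more input reads in the WT list, and no base shared on the same strand, from peak start to peak end, with any of the 55219 peaks of the A5-KO list. They made up 38.7% of the 25183 WT peaks with 50 or more input reads (well-covered peaks), a share that the rule itself sets and from which nothing is read. Against the 54.12% of A5-KO peaks with p below 1e-05 alone, the p threshold given in the study's methods, the share was 60.86%, with the WT peaks left unfiltered. For WT peaks below that p against all A5-KO peaks it was 36.7%. The share with both lists filtered was not computed. The WT list held 43312 peaks in all and the 6 lists of the series 228472. The WT-only peaks lay on 6635 of the 11351 genes with a well-covered WT peak (58.5%), and the other 15446 well-covered peaks, which overlapped an A5-KO peak (shared peaks below), served as the comparison.

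N6-methyladenosine is written on mRNA by a complex around METTL3 and METTL14, mainly within the DRACH sequence (D stands for any base but C, R for A or G, H for any base but G), of which GGAC is the best known core. ALKBH5 removes the mark, and YTH-domain and other reader proteins bind it and affect the stability and translation of the transcript. Along mRNAs the mark is known to gather in long exons and around the stop codon.

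The human embryonic stem cell line MEL1 INS GFP/W, in which 1 insulin allele carries a GFP reporter and which all groups share, was differentiated stepwise, with activin A, KGF, retinoic acid and EGF among the factors, and RNA fragments were sequenced before (input) and after (IP) precipitation with an m6A antibody. WT PP and A5-KO PP formed the second batch, made from total RNA with a Millipore antibody, a SMARTer stranded kit and rRNA-depleted input. The first batch covered pluripotent cells (hPSC), definitive endoderm (DE), PP and islet-like organoids (hILO), made from mRNA with a SYSY antibody and an Illumina kit. Each of these 6 populations had 2 IP and 2 input libraries, 24 in all. The A5-KO genotype came from Cpf1-induced insertions and deletions in the first exon of ALKBH5 in colonies that were picked, so genotype and clone cannot be told apart. One list was deposited per population with the libraries pooled. No value has a spread between replicates, and no difference between lists could be tested. Intervals below are 95% Wilson intervals, and like the counting errors (SE) of log2 enrichments they cover counting error only.

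The WT list fitted its label in part. Of 12 pancreatic progenitor markers, 11 had a well-covered WT peak, with 48843 input reads in WT and 32304 in A5-KO, none of the 4 pluripotency markers POU5F1, NANOG, SOX2 and LIN28A had any peak, and 1 of 6 endocrine markers (CHGA) did, with 653 input reads in WT and 2143 over the endocrine list in A5-KO. Of 8 liver and gut markers 5 had a well-covered peak, but ALB, AFP and APOA1 had none. The peaks of that list held 20583 input reads in WT and 2865 in A5-KO, of which TTR alone held 15675 and 250, while APOB held 854 and 988. FGG, a liver gene outside these markers, held more than that sum, 23641 in WT and 45854 in A5-KO. Of 4 mesenchyme markers 2 had one, with 414 input reads in WT and 1622 in A5-KO. These sums are over peaks called separately in each list, and in bulk samples fewer cells of a type and less RNA per cell cannot be told apart. The part of these other markers in the results was not tested. The A5-KO list held fewer input reads in its peaks than the WT list (12716287 and 19034654), its median peak had 33 input reads against 80, and 24.57% of its peaks had no input read against 11.54%. These reads lie in different peaks in each list, so they do not give the depth of the libraries, and their part in the absence of an A5-KO peak was not tested.

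The stretches below show what a WT-only peak looks like at its motif. Each line is 29 bases of the GRCh38 genome on the transcript strand, 5′ to 3′, with 1 DRACH site of the peak in capitals (a GGAC site where the peak had one, otherwise the site nearest the middle). The first set holds the WT-only peaks with the most input reads among those present in all 4 first-batch lists.
ARID3A, coding sequence, chr19:929861-929889, plus strand: ggagcactttgaGGACAtggcctccgacg
TAPT1-AS1, lncRNA, chr4:16256832-16256860, plus strand: gcatgtctgagtGGACCccatggaaagca
VSIG10, coding sequence, chr12:118066656-118066684, minus strand: tgaggagcaaagTGACAttgttcaagaag
CDC42BPB, coding sequence, chr14:102968256-102968284, minus strand: aaaacaagaagcTAACTgctgaaaatgaa
EPB41L3, 3′UTR, chr18:5396297-5396325, minus strand: cggtgaagacggAAACCatcagttttggc

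The second set comes from WT-only peaks on pancreatic transcription factors that held a GGAC site. It is shown because these genes define the cell type that was profiled.
NKX6-1, coding sequence, chr4:84497738-84497766, minus strand: gggctgctggccGGACTgccacgctttag
NKX6-1, coding sequence, chr4:84493514-84493542, minus strand: tccagaaccgccGGACCaagtggaggaag
HHEX, coding sequence, chr10:92690248-92690276, plus strand: gccgctgcctacGGACCcggcggcttcgg
NKX6-2, coding sequence, chr10:132785930-132785958, minus strand: ggcggcgcccatGGACActaaccgcccgg
MNX1, coding sequence, chr7:157009705-157009733, minus strand: caccttccagctGGACCagtggctgcgcg
MEIS2, coding sequence, chr15:36892424-36892452, minus strand: gagcatgccaggGGACTacgtttctcagg

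The WT-only peaks held nearly as many reads per peak as the shared peaks but were much shorter. Like totals over unlike lengths are not like depth per base. Their median was 237 input reads (quartiles 112 and 585) and 633 IP reads, against 251 and 670 in shared peaks. The median log2 enrichment of IP over input was 3.29 (range 0.66 to 10.54) against 3.64, with a median counting SE of 0.11 per WT-only peak. Exonic length differed widely: the median was 100 nt (quartiles 50 and 175) against 275 nt. Of well-covered peaks up to 50 nt long 75.83% were WT-only, of those over 100 and up to 200 nt 45.63%, and of those over 400 nt 5.198%. A longer span has more bases that an A5-KO peak can share, so the rule itself favours short peaks. By input reads the share hardly moved, from 39.45% at 50 to 99 reads to 37.67% at 1000 or more.

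Just inside the read limit, the 277 WT-only peaks with 50 to 54 input reads had a median log2 enrichment of 3.13. Just outside it, 304 WT peaks with 45 to 49 reads and no A5-KO peak had 2.98. On the overlap side, 1004 WT-only peaks had an A5-KO peak within 25 nt, the step in which the peak caller set its borders, and 406 shared peaks shared at most 25 bases with one. Reads were concentrated in few peaks: 59 WT-only peaks had 10000 or more input reads, and the 10 largest held 19.94% of the 7736222 input reads in WT-only peaks.

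WT-only peaks lay less often than other well-covered peaks on a gene with an A5-KO peak, though most did. Of the 9737, 8489 (87.18%, 86.5 to 87.83) were on such a gene, against 94.94% of all well-covered peaks and 99.83% of shared peaks, which are on such genes almost by their choice. Of the WT-only peaks, 6930 (71.17%) were on a gene with an A5-KO peak of 50 or more input reads. Another 1559 (16.01%) were on genes whose A5-KO peaks each had fewer reads than that. The nearest A5-KO peak of the same gene was a median 350 nt away along the exons (quartiles 125 and 1050, n = 8481). No exonic base lay between the pair in 525 cases, and the A5-KO peak was 1 to 100 nt away in 1574, over 100 and up to 500 nt in 2910 and farther in 3472. The remaining 1248 peaks (12.82%), on 1016 genes, had no A5-KO peak on the gene. These last were more often on lncRNA genes (17.95% against 6.514% of WT-only peaks whose gene had one) and, where placed on a coding transcript, more often within 200 nt of the stop codon (28.23% against 12.02%).

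The first-batch PP list, which the rule did not use, held a peak at 1526 of the 9737 WT-only peaks, or 15.67% (14.96 to 16.41). It held one at 8024 of 15446 shared peaks, or 51.95% (51.16 to 52.74), and at 37.9% of all well-covered WT peaks. The share was thus below the background, and the intervals lay far apart. Shared peaks were already seen in a second list by their choice, which WT-only peaks were not. Where WT-only peaks met a PP peak, their median log2 enrichment was 3.29 in the WT list and 1.56 in the PP list, measured with another antibody and kit. The remaining batch 1 lists gave the same order: 22.56% of WT-only and 61.27% of shared peaks were met in hPSC (background 46.3%), 17.42% and 56.45% in DE (41.4%), and 17.41% and 54.65% in hILO (40.2%). Among WT-only peaks the interval for PP (14.96 to 16.41) lay below that for hPSC (21.74 to 23.4) and just below those for DE (16.68 to 18.18) and hILO (16.67 to 18.17). The lists differ in length, PP being the shortest with 29083 peaks and hPSC the longest of the 4 with 36659, and PP was lowest for all well-covered peaks too, so nothing is read from this order.

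**Figure D1:**
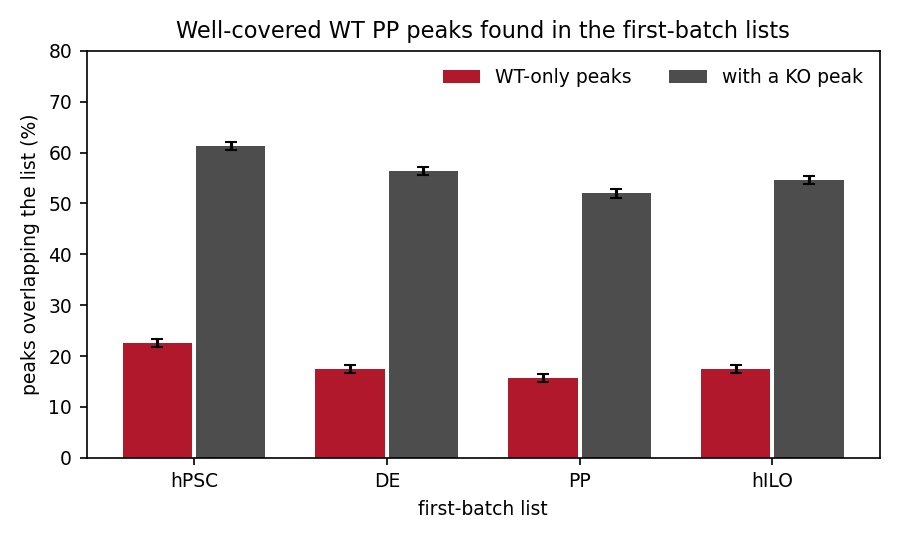
Share of well-covered WT PP peaks that overlap a peak of each first-batch list (y axis, percent) for WT-only peaks (red) and shared peaks (grey), with 95% Wilson intervals. The WT-only bars sit at 15.67% to 22.56% and the shared bars at 51.95% to 61.27%.

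The gap between WT-only and shared peaks was smaller within bins of length, and it was present in every bin. Lengths can still differ inside a bin, and the bin over 400 nt has no upper limit. At up to 50 nt the PP list met 11.35% of WT-only and 17.62% of shared peaks. At over 100 and up to 200 nt it met 15.62% and 30.55%, and over 400 nt 52.11% (46.06 to 58.09, n = 261) and 81.66%. Across bins of input reads the WT-only share stayed between 14.86% and 17.45%, and the shared one between 47.22% and 57.08%. Restricting to the same genes left the gap, without matching for length. On the 3900 genes that carried both kinds, the PP list met 15.83% of 6166 WT-only and 53.85% of 8010 shared peaks, with median lengths of 100 and 275 nt.

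**Figure D2:**
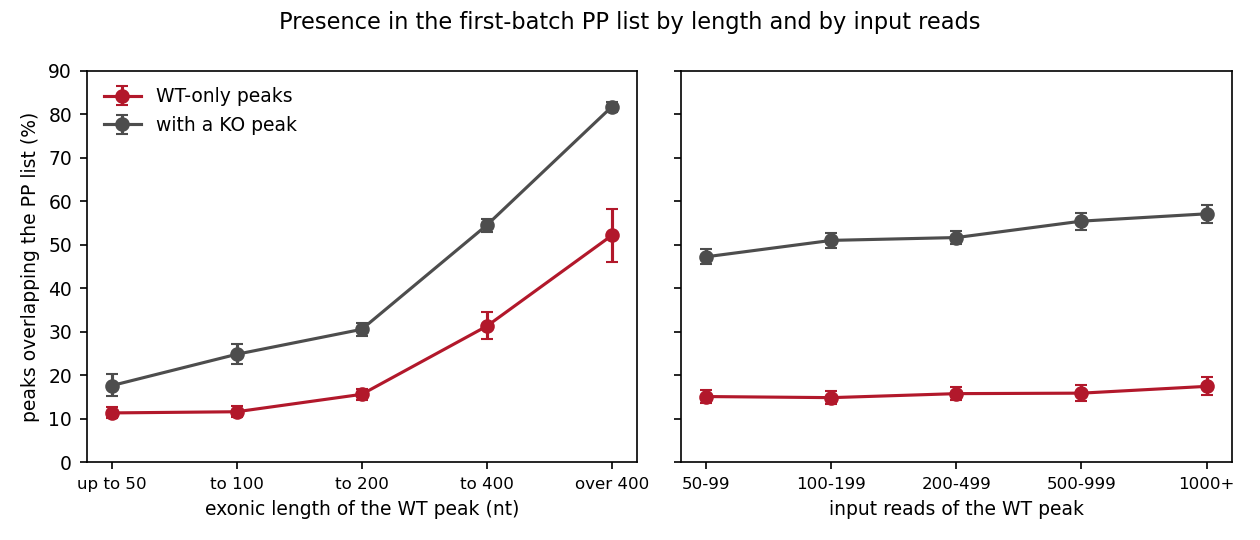
Share of well-covered WT PP peaks met by a first-batch PP peak (y axis, percent) by exonic length (left, nt) and input reads (right), with 95% Wilson intervals. The WT-only line (red) rises from 11.35% to 52.11% with length and stays below the shared line (grey) in every bin.

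Counted over the 4 first-batch lists, 6253 WT-only peaks (64.22%) were in none of them, 1551 in 1, 798 in 2, 573 in 3 and 562 (5.772%) in all. Of shared peaks, 23.15% were in none and 35.24% in all. WT-only peaks in all 4 lists had a median of 175 nt and those in none 100 nt, while their input reads were alike (medians 271 and 238). Those in none had the higher share in the 5′UTR (12.19% against 7.375%), and those in all 4 had the higher share within 200 nt of the stop codon (21.69% against 11.18%).

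The WT-only peaks in all 4 lists with the most reads were picked for their WT reads, so higher reads in WT than in PP follow from the choice, and the PP peak can cover another stretch. CDC42BPB, a kinase that acts on the cytoskeleton below CDC42, had a coding peak of 75 exonic nt with 55942 input and 32049 IP reads in WT (log2 1.80 ± 0.01 SE), and the PP peak there had 46 input reads and a log2 of 1.055. VSIG10 had 13316 input and 109977 IP reads (log2 5.44 ± 0.01 SE), and 36 input reads in PP. Peaks outside this choice could be the other way round, such as one of ZC3H13 with 66 input reads in WT and 1083 in PP. ARID3A, a DNA-binding transcription factor, was the closest between the batches, with 8841 input reads in WT and 796 in PP (log2 2.51 and 1.93). TAPT1-AS1, an antisense RNA, had 12462 and 20 input reads, and EPB41L3, a membrane skeleton protein, 14143 and 42.

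By position, 7049 WT-only peaks could be placed on a coding transcript. Of these 11.12% (10.41 to 11.88) had their midpoint in the 5′UTR against 5.382% of 12226 placed shared peaks, 46.05% against 49.2% in coding sequence and 42.83% against 45.42% in the 3′UTR. The 5′UTR stood out in the other direction of counting too: 54.37% of well-covered 5′UTR peaks were WT-only (784 of 1442), against 35.05% in coding sequence and 35.22% in the 3′UTR. Within 200 nt of the stop codon were 13.75% (12.96 to 14.57) of WT-only and 21.01% of shared peaks. In the 100 nt past the stop codon there were 42.42 WT-only peaks per 1000 placed against 64.7 shared ones, and from 900 to 800 nt before it 22.98 against 19.79. At a like length of over 100 and up to 200 nt the differences were smaller: 11.03% and 6.99% for the 5′UTR, and 13.89% and 17.89% near the stop codon.

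**Figure D3:**
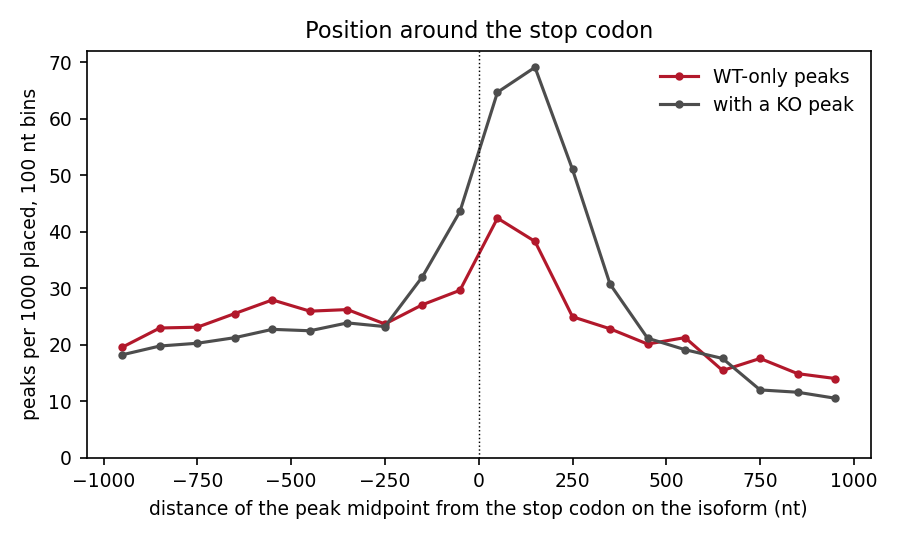
Peaks per 1000 placed (y axis, 100 nt bins) by distance of the peak midpoint from the stop codon along the transcript (x axis, nt, negative before it), for WT-only (red) and shared (grey) peaks. Both lines are highest in the 200 nt past the stop codon, where WT-only peaks reach 42.42 and shared peaks 69.12 per 1000.

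Several exons were joined in 19.95% of WT-only and 26.14% of shared peaks. Gene types differed little: 7.98% of WT-only peaks were on lncRNA genes (7.458 to 8.535) against 7.135% (6.739 to 7.551), and 242 were on pseudogenes (2.485% against 2.324%), where reads can belong to a near-identical parent gene. Several gene identifiers were listed for 1614 WT-only peaks (16.58%). Among autosomes the WT-only share of well-covered peaks ran from 31.66% on chromosome 13 to 50.0% on chromosome 22 (293 of 586), with 43.85% on the gene-rich chromosome 19.

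In sequence, the WT-only peaks were richer in G and C, and fewer of them held an m6A motif. Their median GC content was 52.0% against 46.86%, and it was 66.67% for those in the 5′UTR. A DRACH site lay in 80.7% of WT-only peaks (79.91 to 81.47) against 95.68% of shared and 89.89% of all well-covered peaks. GGAC, whose occurrences overlap those of DRACH except before a G, lay in 40.47% against 67.85% of shared and 57.26% of all. Among peaks of over 100 and up to 200 nt the DRACH shares were closer, 94.44% and 97.69%. The GGAC shares at like length lay close with no fixed order: 19.7% of WT-only and 18.45% of shared peaks up to 50 nt, 31.16% and 28.98% over that and up to 100 nt, 51.47% and 53.19% from there to 200 nt, and 77.05% and 76.35% from there to 400 nt. Per 100 nt there were 1.91 DRACH sites on the transcript strand and 1.505 on the opposite one in WT-only peaks (ratio 1.27), and 2.217 and 1.64 in shared peaks (ratio 1.352). GGAC was slightly denser in WT-only peaks, 0.4784 per 100 nt against 0.4602, and its strand ratios were 1.483 and 1.638. Both strands were searched, and a match is no evidence of methylation at that base.

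The motif ratio of WT-only peaks differed by the number of first-batch lists that held them, and no interval was computed for it. For DRACH it was 1.175 for peaks in none, 1.33 in 1, 1.376 in 2, 1.463 in 3 and 1.459 in all 4. For GGAC it was 1.373 in none, 1.549 in 1, 1.523 in 2, 1.715 in 3 and 1.762 in all 4. WT-only peaks in 3 or 4 lists were above the shared peaks in as many lists (1.37 and 1.348 for DRACH, 1.66 and 1.632 for GGAC), and those in none, 1 or 2 were below (1.281, 1.389 and 1.395 for DRACH and 1.576, 1.597 and 1.737 for GGAC in shared peaks). By region, the DRACH ratio was 1.493 in coding sequence, 1.283 in the 5′UTR and 1.194 in the 3′UTR. The share of placed WT-only peaks in coding sequence was 44.43% in none of the lists and 54.23% in all 4. The part of region in the ratios by list was not tested.

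**Figure D4:**
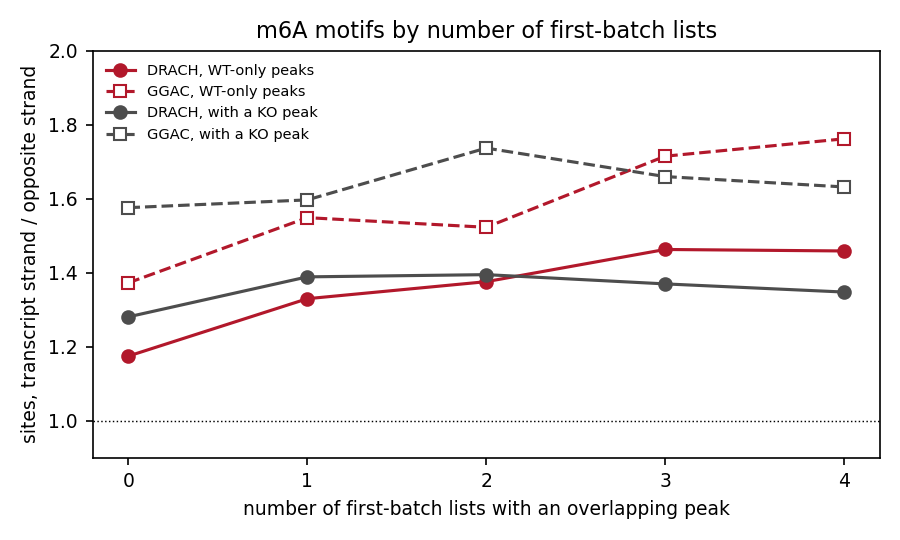
Ratio of motif sites on the transcript strand to the opposite strand (y axis) by number of first-batch lists with an overlapping peak (x axis), for DRACH (filled) and GGAC (open) in WT-only (red) and shared (grey) peaks. The DRACH ratio of WT-only peaks goes from 1.175 in none of the lists to 1.459 in all 4.

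The 6635 genes mostly carried a single WT-only peak: 4538 (68.39%) had 1, 1434 had 2, 586 had 3 or 4 and 77 had 5 or more. On 2735 of these 6635 genes (41.22%) every well-covered WT peak was WT-only, which a gene with 1 well-covered peak meets by that peak alone. This is not absence from the A5-KO list, since 1016 of the 6635 genes had no A5-KO peak. TTN, the giant sarcomere protein titin, had the most, 15 of 67 well-covered peaks, all in coding sequence, with 50 to 516 input reads, and the A5-KO list held 121 peaks on the gene. KCNQ1OT1, an imprinted antisense lncRNA, had 13 of 23, with 50 A5-KO peaks. ZFHX3, a homeodomain and zinc finger factor, had 12 of 20, of which 5 were in the PP list. These A5-KO counts take peaks of any read count. On that footing the WT and A5-KO lists held 95 and 121 peaks on TTN, 52 and 50 on KCNQ1OT1, and 25 and 28 on ZFHX3. ANKRD11, a chromatin regulator, had 7 of 15, of which 4 were in the PP list, and 19 peaks of any read count in each of the WT and A5-KO lists. TIMP2, an inhibitor of matrix metalloproteinases, had 7 of 8 well-covered peaks WT-only, with 5214 input reads in them. The A5-KO list held 1 peak on it, with 40 input reads.

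The WT-only peaks with the most reads lay on few genes. IGF2, a fetal growth factor with its own imprinted control, had 6 WT-only peaks. The largest, in its 3′UTR (chr11:2131787-2132236), had 264246 input and 148714 IP reads (log2 1.38). Its WT-only peaks in the 5′UTR included one with 124300 and one with 65361 input reads. All WT peaks of IGF2 together had 980510 input reads, the 2 A5-KO peaks 5148 and the 2 PP peaks 7290. FOXD1, a forkhead transcription factor of renal stroma and other tissues, had a 3′UTR peak (chr5:73446515-73446664) with 220327 input and 1800217 IP reads (log2 5.86), and its A5-KO peaks had 27 input reads in all. ITPRIPL1 had 489421 input reads in its WT peaks and 1008 in its A5-KO peaks. These sums cover different stretches in each list, and the genes were picked for their WT input reads, so they do not show lower input in A5-KO. Other A5-KO read sums set beside WT-only peaks in these results also cover other stretches. They do not show lower or higher input in A5-KO. A5-KO input at the WT-only sites was not analysed here.

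The other genes among the 10 WT-only peaks with the most reads were LRIG2, PRMT6 and MRTFB. LRIG2, a leucine-rich repeat membrane protein, had a coding peak of 50 nt (chr1:113114712-113114761) with 241691 input and 116252 IP reads (log2 1.53), in none of the first-batch lists, and 661 input reads in 2 A5-KO peaks. PRMT6, an arginine methyltransferase, had 80546 input and 73211 IP reads (log2 2.96). Its case differed, because the 2 A5-KO peaks of the gene held 76623 input reads and the nearer was 50 nt away. MRTFB, a coactivator of serum response factor, had 65313 input and 197624 IP reads in the 3′UTR (log2 4.48).

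The largest enrichments were on peaks of few to moderate input. ZNF326, a zinc finger protein that links chromatin to transcript elongation and splicing, led with a coding peak of 290 input and 52888 IP reads (log2 10.54 ± 0.08 SE). It was present in all 4 first-batch lists, with a log2 of 2.49 and 62 input reads in PP, and its 3 A5-KO peaks, the nearest 175 nt away, had 237 input and 39753 IP reads. SNHG30, a host gene of small nucleolar RNA, followed with 1198 input and 126526 IP reads (log2 9.53 ± 0.04 SE), and the A5-KO list held no peak on it. The other 8, on SGCE, WNK1, PAQR3, LITAF, OLMALINC, CYP2R1, TRIQK and LINC01980, had log2 enrichments from 7.45 to 7.62 and 52 to 334 input reads. None of these 8 was in a first-batch list, and of all WT-only peaks 64.22% were in none. WNK1, a kinase that controls ion transport, had a 3′UTR peak with 111 input and 2341 IP reads (log2 7.59 ± 0.14 SE). CYP2R1, a vitamin D hydroxylase, had 125 input and 2851 IP reads, and the nearest of its 3 A5-KO peaks was 100 nt away.

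On genes with no A5-KO peak the most input reads were on a lncRNA. LINC02435 had WT-only peaks of 24096 and 9969 input reads, with low enrichment (log2 0.87 and 0.75) and no DRACH site in either. NDUFA4L2, a mitochondrial protein that hypoxia induces, had 10926 input and 38831 IP reads in the 3′UTR (log2 3.11 ± 0.02 SE). BBS2, a part of the ciliary BBSome, had 10445 and 44356 (log2 5.09 ± 0.02 SE), and TWF2, an actin-binding protein, 8995 and 30246 (log2 3.11 ± 0.02 SE). None of the 5 was in a first-batch list, and of all WT-only peaks on genes with no A5-KO peak 57.29% were in none.

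Pancreatic transcription factors had a lower share of WT-only peaks than the background, counted over peaks but not over genes. Of the 86 well-covered peaks on 26 such genes, 24 were WT-only (27.91%, 19.53 to 38.17), on 16 genes (61.54% of the 26, against 58.5% of all genes), with a median log2 enrichment of 3.30 against 3.29 over all WT-only peaks. In coding sequence were 12, in the 3′UTR 5 and in the 5′UTR 2. Every one of the 16 genes also had an A5-KO peak elsewhere. The PP list met 9 of the 24, 5 of them on MEIS2, against 15.67% of all WT-only peaks, and 13 were in no first-batch list, against 64.22% of all.

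NKX6-1, the homeodomain factor that marks progenitors able to form beta cells, had 4 of its 5 well-covered peaks in the WT-only set. They had 1451, 913, 170 and 95 input reads and 1595, 4235, 177 and 363 IP reads, with log2 enrichments of 0.93, 3.23, 2.58 and 3.77. The 170-read peak (chr4:84493462-84495758), whose GGAC site is printed above, was the one that the PP list also held, with 575 input and 6042 IP reads (log2 3.34), and the hILO list held it too. The 3 A5-KO peaks of NKX6-1 had 592 input and 809 IP reads, against 2744 and 7011 in all 5 WT peaks and 2489 input reads in the 3 PP peaks. The paralogue NKX6-2 had 209 input and 562 IP reads in 1 WT-only peak (log2 2.13 ± 0.12 SE), which no first-batch list held.

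MEIS2, a TALE homeodomain cofactor, had 5 WT-only peaks, of 106 to 806 input reads, and all 5 were met in the PP list. A pair of them, 25 nt apart (chr15:37036745-37036794 and chr15:37036820-37036869), fell in the same PP peak of 782 input and 2011 IP reads (log2 1.52). Their own enrichments differed, log2 6.78 from 806 input and 9882 IP reads, and 3.32 from 158 and 235. Neither held a DRACH site. The peak with the printed GGAC site (145 input and 331 IP reads, log2 4.17) adjoined an A5-KO peak and met a PP peak of 2292 input and 13308 IP reads. MEIS1, a paralogue, had 1 peak of 1008 input and 10667 IP reads in the 3′UTR (log2 6.27), outside all first-batch lists and without a DRACH site.

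FOXA2 and FOXA1 are forkhead factors of the early gut tube. FOXA2 had a 5′UTR peak of 8797 input and 33179 IP reads (log2 3.90 ± 0.02 SE), 225 nt from an A5-KO peak. FOXA1 had 5228 and 11977 (log2 2.73). ONECUT2 had the most reads of the list, 15132 input and 27485 IP in coding sequence (log2 1.97), yet this was 1 of its 12 well-covered peaks, and the A5-KO list held 11 peaks on it. HHEX, a homeobox gene of liver and ventral pancreas, had 769 input and 432 IP reads (log2 0.85), and 27 input reads in its A5-KO peak. ONECUT1 and GATA6 had weak peaks too (log2 0.90 and 1.51).

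Further factors of the list had 1 WT-only peak each. TCF7L2, which binds beta-catenin in Wnt signalling, had 722 input and 3765 IP reads in the 3′UTR (log2 5.18), 75 nt from an A5-KO peak. PROX1 had 610 and 1325 (log2 3.39) and was met in PP. GLIS3 had 124 and 123 (log2 2.43) and MNX1 111 and 537 (log2 3.27), the latter 25 nt from an A5-KO peak.

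Liver and gut genes had 16 WT-only peaks among 36 well-covered ones (44.44%, 29.54 to 60.42), an interval that spans the background of 38.7%. They lay on 10 of 12 genes (83.33% against 58.5% of all), a share that rises with the number of peaks per gene. Of the 16, 1 was met in PP, against 15.67% of all WT-only peaks. FGG and FGA encode fibrinogen chains. FGG had 3 of them, the largest with 4276 input and 19256 IP reads (log2 4.91), 25 nt from an A5-KO peak, and its 4 A5-KO peaks had 45854 input reads. FGA had 4172 input and 12901 IP reads (log2 4.75) against 862 input reads in 2 A5-KO peaks. TTR, a thyroxine carrier of liver and islet cells, had 686 and 4745 (log2 5.61), and TF, the iron carrier transferrin, 1129 and 2169 (log2 3.00). VIL1, an actin-bundling protein of the brush border, had 2 peaks (1733 and 290 input reads), and CDX2, the intestinal homeodomain factor, 1 (221 input and 515 IP reads, log2 3.07). TBX3, the member of the list met in PP, had 3 peaks of 138 to 582 input reads. APOB had 2 (168 and 52 input reads) beside 13 A5-KO peaks. SERPINA1 had 1 of 70 input reads. APOA2 had 150 input and 1041 IP reads (log2 4.85) and no A5-KO peak.

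Endocrine genes had few peaks in all, and 6 of 9 well-covered ones were WT-only (66.67%, 35.42 to 87.94), an interval that spans the background of 38.7%. MAFA, a beta cell transcription factor, had 8101 input and 57626 IP reads in its coding sequence (log2 3.69 ± 0.02 SE), and neither the A5-KO nor any first-batch list held a peak there. CHGA and CHGB encode granins of hormone-storing vesicles. CHGA had 385, 152 and 116 input reads in its 3 peaks (log2 3.31, 3.15 and 3.96), of which the last was met in PP (log2 2.03). Its 2 A5-KO peaks had 2105 input reads, more than the 653 of its WT peaks. CHGB had 457 input and 1419 IP reads (log2 3.71) and adjoined an A5-KO peak.

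Genes of the m6A machinery itself had 22 WT-only peaks among 63 well-covered ones (34.92%, 24.33 to 47.25, against 38.7%), on 13 of 22 genes (59.09% against 58.5%), both near the background. Of the 22, 5 were met in PP, against 15.67% of all WT-only peaks. Writers came first by reads. RBM15 and RBM15B, adaptors that bring the writer complex to RNA, had peaks of 2005 and 1635 input reads (log2 4.72 and 2.04), the first in the 5′UTR. METTL3, the catalytic subunit, had 1475 input and 3327 IP reads (log2 2.75 ± 0.05 SE) with no DRACH site. ZC3H13 had 3 peaks (524, 517 and 66 input reads), of which the latter 2 were in all 4 first-batch lists, and its PP peak at the last had 1083 input reads (log2 2.50 against 1.90 in WT). CBLL1, an adaptor of the complex, had 285 and 352 in coding sequence (log2 2.62), also in all 4 lists, and VIRMA, its scaffold, 437 and 380 (log2 2.62). METTL16, a separate methyltransferase, had 3 peaks of 58 to 757 input reads.

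Of the readers, YTHDF1 had 1 peak of 120 input and 425 IP reads in the 3′UTR (log2 4.28 ± 0.15 SE). IGF2BP1, IGF2BP2 and IGF2BP3, which are held to stabilise m6A-marked mRNAs, had 2, 1 and 4 peaks of 52 to 453 input reads. FMR1 and FXR2 encode related RNA-binding proteins of translation. FMR1 had 128 and 813 (log2 5.20 ± 0.14 SE), in all 4 first-batch lists, and FXR2 577 and 1062 in the 5′UTR (log2 1.66).

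Counted over peaks, signalling families spread around the background of 38.7% without a common direction. Notch genes had 34 of 76 well-covered peaks WT-only (44.74%, 34.08 to 55.9), Hedgehog genes 15 of 33 (45.45%), insulin and mTOR genes 37 of 87 (42.53%), FGF, EGF and RAS-MAPK genes 25 of 68 (36.76%), Wnt genes 37 of 106 (34.91%), TGF-beta, Nodal and BMP genes 28 of 81 (34.57%) and Hippo genes 25 of 84 (29.76%). All these intervals spanned the background. Counted over genes, every one of these families lay above the 58.5% of all genes, from 62.5% for Notch to 73.08% for FGF, EGF and RAS-MAPK genes. A gene with more well-covered peaks reaches that count more easily, and the gene shares were not tested. NOTCH2, a receptor, had a coding peak of 2017 input and 15562 IP reads (log2 4.50) that was in all 4 first-batch lists, with a log2 of 1.24 in PP. SPEN, a corepressor of Notch targets, had 2168 input and 23016 IP reads in the 3′UTR (log2 5.51), and NOTCH4 2911 and 5121 (log2 2.97). IHH, a hedgehog ligand, had 1435 and 12263 in the 5′UTR (log2 4.11). PTCH1, the hedgehog receptor, had 440 and 4531 in coding sequence (log2 6.17), and GLI2, a transcription factor of the pathway, 626 and 1124 (log2 2.22).

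In the insulin list, INSR, the insulin receptor, had coding peaks of 1981 and 827 input reads (log2 4.12 and 4.47). Its 2 A5-KO peaks, which lay elsewhere on the gene, had 53 input reads in all. INSR was named for its WT input reads, so these values do not show lower input in A5-KO. RPTOR, a subunit of mTORC1, had 752 input and 5527 IP reads (log2 3.95). In Wnt signalling, the corepressor TLE1 had 3208 and 26885 in the 5′UTR (log2 3.93), the receptor FZD5 1746 and 2677 in coding sequence, in all 4 first-batch lists (log2 2.36 in WT and 2.16 in PP), and VANGL1, of planar polarity, 2366 and 4767. At this FZD5 peak both enrichments lay close, while 3 of its other WT-only peaks met no PP peak. ID3 and ID2, targets of BMP signals that block bHLH factors, had 4523 and 3534 input reads (log2 3.12 and 2.67), and ID3 had no A5-KO peak. ACVR1B, an activin receptor, had 4394 and 6421 in the 3′UTR (log2 2.82). The kinase MAP2K1 had 1908 and 2394 in the 5′UTR (log2 1.15) and no A5-KO peak, HRAS 1096 and 1357 in coding sequence and the receptor ERBB3 736 and 627. Of the Hippo list, the atypical cadherin FAT4 had 3412 and 3998 (log2 2.88), PTPN14 896 and 2703, and VGLL4, a TEAD cofactor, 607 and 936.

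Among broader groups, the interval lay below 38.7% for 4 lists. Chromatin regulators had 105 of 320 (32.81%, 27.9 to 38.13), ubiquitin ligases and peptidases 173 of 510 (33.92%, 29.95 to 38.14), genes named ZNF or ZFP 327 of 1026 (31.87%, 29.09 to 34.79) and protocadherins 21 of 98 (21.43%, 14.46 to 30.55). Counted over genes, chromatin regulators were on the other side of the background, with a WT-only peak on 50 of 60 genes (83.33% against 58.5%). Ubiquitin ligases and peptidases were too (61.54%), while ZNF or ZFP genes (54.66%) and protocadherins (35.0%) were below it. A gene counts if any of its peaks is WT-only, so this share rises with peaks per gene. The 60 chromatin genes had 320 well-covered peaks, and all 11351 genes had 25183. The ZNF and ZFP symbols were taken by name and include ZFP36L2, ZNF8-DT and the pseudogene ZNF252P, which are not C2H2 zinc finger proteins. Pancreatic transcription factors had an upper bound of 38.17, also under the background. No list had an interval above it: cytoplasmic ribosomal proteins had 24 of 47 (51.06%, 37.24 to 64.72) and kinesins, dyneins and myosins 78 of 173 (45.09%, 37.86 to 52.53). With 27 lists set side by side some intervals can miss the background by counting error alone, and peaks of 1 gene share its reads.

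**Figure D5:**
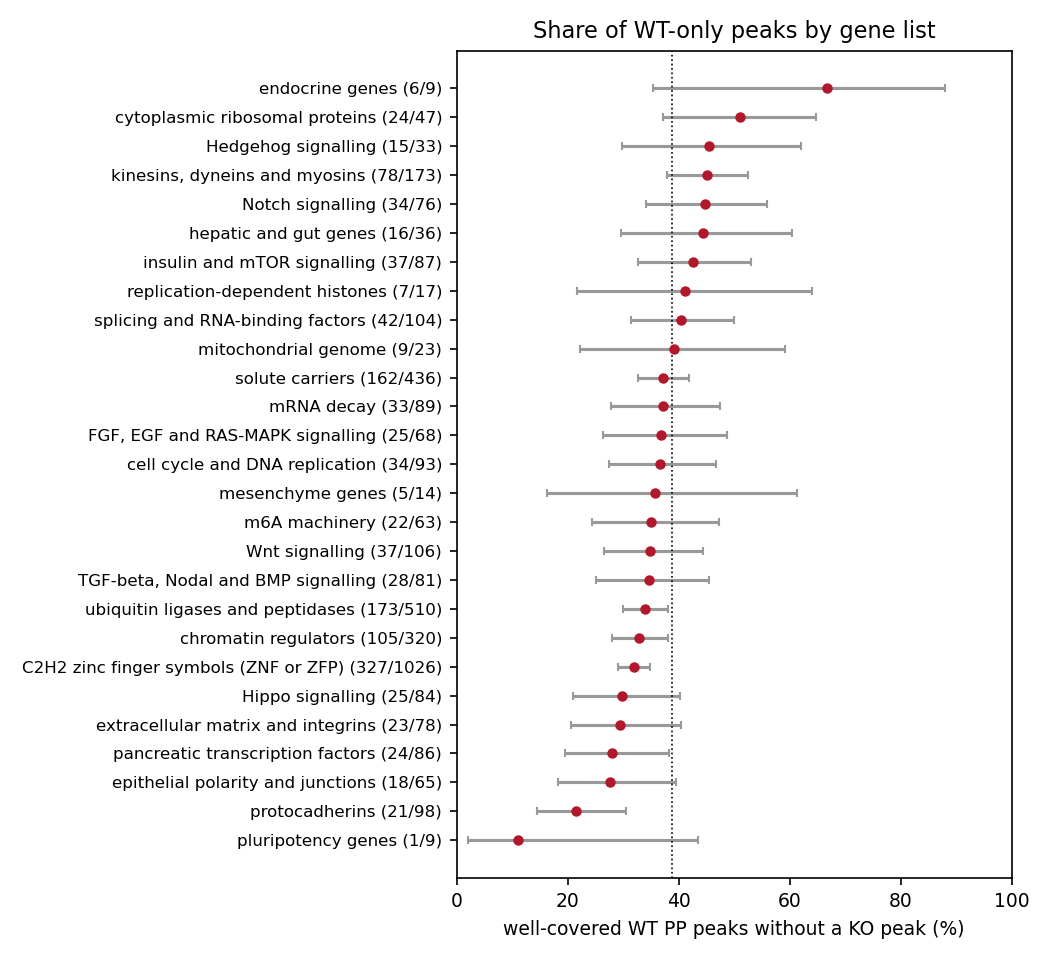
Share of well-covered WT PP peaks that were WT-only (x axis, percent) by gene list, with 95% Wilson intervals and WT-only over well-covered peaks in brackets, and the dotted line at 38.7% for all. The lists run from 1 of 9 for pluripotency genes to 6 of 9 for endocrine genes, and protocadherins lie lowest among lists with over 20 peaks at 21.43%.

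Of the chromatin regulators, the BAF subunit ARID1A had a coding peak of 4670 input and 31380 IP reads (log2 5.40), 25 nt from an A5-KO peak. ASXL1 had 2723 and 13074 in the 5′UTR (log2 3.15). In all, 23 of the 105 were met in PP, against 15.67% of all WT-only peaks, and 65 were in no first-batch list, against 64.22% of all. HERC2, a ubiquitin ligase, had 15273 and 31419 in the 3′UTR (log2 4.18), FBXO32, an F-box protein of muscle wasting, 13154 and 40800 (log2 4.63), and the peptidase gene USP27X 5093 and 10609. PCDH17 had 1991 and 6326 (log2 3.25) and was met in PP, while PCDHGB6 and PCDHGB2, whose exons are shared with or close to those of other cluster members, had 1641 and 1606 input reads.

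Among RNA-binding and decay factors, splicing genes had 42 of 104 (40.38%) and mRNA decay genes 33 of 89 (37.08%), against 38.7% of all. Over genes they had 27 of 35 (77.14%) and 18 of 31 (58.06%), against 58.5% of all. HNRNPUL1, a nuclear ribonucleoprotein, had 5479 input and 8064 IP reads in coding sequence (log2 2.71) and was in all 4 first-batch lists with a like value in PP (2.08). SRRM1, a splicing coactivator, had its deepest peak at 1871 and 1423, and SNRNP200, a helicase of the spliceosome, at 1967 and 1313 with no A5-KO peak. TNKS1BP1 had 12574 and 85295 in coding sequence (log2 5.05), ZFP36L2, which brings AU-rich mRNAs to decay, 6664 and 39562 in the 5′UTR (log2 3.50), and TNRC6B, a partner of Argonaute, 1191 and 2279. Of the ribosomal protein genes, 8 of the 17 with a WT-only peak had no A5-KO peak, against 1016 of 6635 over all genes with a WT-only peak, RPL5, RPL29 and RPL26L1 among them, and RPL5 (2710 input and 1324 IP reads, log2 2.02) was in all 4 first-batch lists. Ribosomal protein genes have many processed copies, so their reads are uncertain in placement.

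Cell cycle genes had 34 of 93 (36.56% against 38.7% of all), on 23 of 32 genes (71.88% against 58.5%). CDKN1A, the p53 target that halts the cycle, had 18456 input and 100176 IP reads in the 3′UTR (log2 4.41), 850 nt from its A5-KO peak of 3749 input reads. MKI67, a proliferation marker, had 1642 and 2933 in coding sequence in all 4 first-batch lists (log2 3.10, in PP 1.30), and BRCA1, of DNA repair, 1395 and 4640. KIF2C, a mitotic kinesin, had 5980 and 15825 in the 3′UTR and no A5-KO peak, KIF2A, its relative, 4304 and 11194, and KIF1C 2375 and 4255 in all 4 first-batch lists (log2 1.94, in PP 1.95). This peak, like that of FZD5, thus had near-equal enrichment in both batches, while 2 other WT-only peaks of KIF1C met no PP peak. Histone genes had 7 of 17 (41.18% against 38.7%), H2AC15, H4C15 and H1-10 with 1221, 889 and 721 input reads.

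Of genes of cell shape and surface, CDH1, the epithelial cadherin, had 9766 input and 50680 IP reads in the 3′UTR (log2 5.39), 50 nt from an A5-KO peak. The polarity genes CRB3 and PARD6B had 1794 and 1547 input reads. This list had 18 of 65 (27.69%, 18.29 to 39.58), extracellular matrix genes 23 of 78 (29.49%) and mesenchyme genes 5 of 14 (35.71%), against 38.7% of all. None of the 5 on mesenchyme genes was in a first-batch list, and of all WT-only peaks 64.22% were in none. FN1, the matrix protein fibronectin, had 27174 and 18777 in coding sequence (log2 1.72), with 26310 input reads in its 2 A5-KO peaks, the nearer 75 nt away. COL18A1 had 5002 and 22627 (log2 3.34), FREM2 2332 and 5456 (log2 4.26), COL6A3 154 and 2014 (log2 6.13) and COL5A1 148 and 254.

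Solute carriers had 162 of 436 (37.16% against 38.7% of all). SLC22A4, an ergothioneine transporter, had 26279 and 48127 in the 5′UTR (log2 2.67), SLC7A1, a cationic amino acid transporter, 24539 and 120533 in the 3′UTR (log2 4.28), and SLC49A3 6647 and 53151 (log2 4.02) with no A5-KO peak. The mitochondrial genome had 9 of 23 (39.13% against 38.7%), led by MT-ND4, a complex I subunit, with 44882 input and 13362 IP reads (log2 0.74), and MT-ATP6, of the ATP synthase, with 1721 and 2514. MT-TW, a transfer RNA gene, had 372 and 1696. The 1 WT-only peak on the pluripotency list was on DPPA4, with 103 and 65 in the 3′UTR (log2 1.28).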

How the data were processed

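The labels put 24 m6A-seq libraries of the MEL1 INS GFP/W line in 12 groups of 2. According to the methods, the authors used fastp for trimming, HISAT2 for alignment to GRCh38 and exomePeak2 for peaks, 1 list per population over its libraries. The annotation used is not given in the sources used here. For each peak the authors deposited a read count of IP and of input, pooled over libraries (sum or mean not stated), a log2 enrichment of IP over input after size factor and GC correction, and a p-value with its adjusted form. A log2 enrichment is therefore not the ratio of the printed counts.

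From these lists, spans were compared by shared bases with Python 3.11, pandas 2.3.3, numpy 2.4.6 and pysam 0.24.0. Overlap counting was tested on simulated data. Peaks were cut to the exons of GENCODE 44 genes (9727 of the 9737 matched), given to the listed gene with the most exonic bases, and placed by exonic midpoint on its longest coding isoform. DRACH and GGAC were searched in the GRCh38 sequence of those exons. Intervals are Wilson 95% intervals from scipy 1.17.1, and counting SEs are those of log2 IP over input counts with 0.5 added. Coordinates are 1-based. Neither depth per library nor spread between libraries is known from pooled lists, so nothing was tested. The p-values were used in alternatives only, and 6608 of the 9737 peaks (67.86%) had p below 1e-05.

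The peaks and gene lists were chosen with earlier results of these data known. Genes named are the 10 peaks with most input reads, the 10 with the largest log2 enrichment, the 5 genes with most peaks, the 5 peaks with most input reads in all 4 first-batch lists and the 5 on genes without an A5-KO peak, all on the pancreatic, liver and gut, endocrine and m6A lists, and up to 3 genes by input reads in other lists. Some genes that this rule names are not reported here. Alternatives changed the read minimum, the overlap, strand, p, isoform, motif and length.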

Additional observations from a re-analysis of the deposited data

How the results depend on the processing

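No paired analysis was possible because each list pools both libraries of its groups and the results come from no test. For the same reason no replicate could be left out. Of 63 alternatives, 37 stayed inside the interval of the value reported or within 1.5 times a gene count. The share of WT-only peaks (38.66%) became 38.02% at 200 input reads, 37.07% with both strands counted, 31.85% with no A5-KO peak within 100 nt, 48.26% when under 50% of the span had to be covered, 60.86% against A5-KO peaks with p below 1e-05 alone (fewer peaks to meet) and 36.7% for WT peaks below that p. With over 50% of the span covered, presence was 10.63% in PP, 16.21% in hPSC, 12.07% in DE and 13.25% in hILO. Limited to genes that the compared list also marked, it was 20.21%, 27.07%, 21.59% and 21.92%. Counting any overlap gave 14.17% in the 5′UTR, 51.0% in coding sequence and 44.84% in the 3′UTR, and the canonical isoform 10.27%, 49.13% and 40.6%, with 14.68% near the stop codon. The DRACH share was 73.35% on the opposite strand, 79.63% in single-exon peaks, 40.47% for GGAC, and 94.44% at over 100 and up to 200 nt, a length chosen after seeing the data. Genes with an A5-KO peak held 74.55% at p below 1e-05. The cause of these shifts was not tested.

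Other rules chosen after seeing the data left presence in PP below that of shared peaks: 15.62% and 30.55% at over 100 and up to 200 nt, 15.52% and 48.39% with no A5-KO peak within 100 nt, and 15.3% on genes with an A5-KO peak. Pooled counts and 1 list per genotype limit every comparison, and a peak absent from the A5-KO list is not shown to be unmethylated there.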
